A study of Mus musculus with 6 samples.

Results

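A set of 10 genes of NAD metabolism was examined in mouse cells labelled as adipocytes and treated with baicalin. The gene symbols were looked up in a table of 54532 genes: Bst1, Cd38, Nampt, Naprt, Nmnat1, Nmnat3, Nadk, Nnmt, Parp1 and Sirt1. All 10 were found, and 9 had enough reads to test. The 6 libraries came from 3T3 cells, a mouse fibroblast line that can be turned into fat cells, labelled as wild-type adipocytes. The 3 control samples got DMSO as vehicle, and the 3 treated ones baicalin, a flavone glucuronide, at 200 µM. Not given in the sources used here are the way the cells were differentiated, the duration of treatment and whether each replicate was its own culture. Every p-value here therefore reflects only how these samples vary, which may be technical variation. Because the 10 genes were proposed with the baicalin contrast already known, their own differences are given as a description and support nothing beyond it.

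NAD is the electron carrier of glycolysis and respiration, and it is also consumed as a substrate. Most cells rebuild it from nicotinamide. Nampt catalyses the slow initial step of this salvage route, and the Nmnat enzymes complete it. Naprt opens a parallel route from nicotinic acid, and Nadk adds a phosphate to give NADP, the carrier of reductive synthesis and antioxidant defence. The ectoenzymes Bst1 and Cd38 cleave NAD to ADP-ribose and cyclic ADP-ribose, the polymerase Parp1 transfers its ADP-ribose to proteins at DNA breaks, and the deacetylase Sirt1 uses it to remove acetyl groups. Each of these reactions releases nicotinamide, which Nnmt can methylate and so withdraw from salvage. In fat tissue Nampt is also known as a secreted factor and Nnmt as an abundant enzyme.

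Total counts ranged from 16730594 to 18326874 reads per library. Values with ± are means and SD of n = 3 libraries. All genes were fitted together with edgeR's quasi-likelihood test, and a gene is called at a Benjamini-Hochberg adjusted p under 0.05. Of 13728 genes tested, 67.7% were called, 33.6% higher and 34.1% lower in baicalin, so a call by itself marks no gene out. With scaling by library size alone the median of all genes shifted by -0.13 on the log2 scale and the calls split as 3472 higher and 5811 lower, against 4618 and 4676 with the TMM scaling used throughout. The cell label was checked on markers. Of 9 markers of mature fat cells, Lep and Slc2a4 stayed under 1 CPM (counts scaled to a common library size by TMM) in every library, and the summed level of the 9 was 1801 to 1975 CPM with DMSO against 802 to 816 CPM with baicalin. Most of that sum came from Lpl (1441 against 490 CPM on average) and Fabp4 (429 against 298 CPM). Of the 7 fat cell markers tested, 6 were called lower. The other, Cebpa, went up without being called, from 0.97 CPM with DMSO to 1.57 CPM with baicalin. Adipoq, the fat cell hormone adiponectin, had 42, 31 and 17 reads with DMSO against 3, 3 and 1 with baicalin. Cidec, also called lower, had 115, 105 and 66 reads with DMSO against 7, 11 and 9 with baicalin. Both passed the count filter through their DMSO libraries alone, so a call for them could hardly be other than lower. All 6 fibroblast or preadipocyte markers were present, with a summed level of 7877 to 8414 CPM with DMSO against 6455 to 6735 CPM with baicalin. Already with DMSO, the preadipocyte marker Dlk1 averaged 1295 CPM and Adipoq 1.66 CPM, so the markers did not all bear out the adipocyte label. Of these 6, 4 were called lower, namely Pdgfra (1424 to 652 CPM on average), Dlk1 (1295 to 584 CPM), Col1a1 (2890 to 1971 CPM) and Pdgfrb (351 to 278 CPM). The other 2 were called higher, namely Col3a1 (2116 to 2871 CPM on average) and Thy1 (115 to 245 CPM). In bulk RNA, fewer cells of a type and less RNA per cell cannot be told apart, and the part of cell state in the results below was not tested.

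Of the 9 tested NAD genes, 6 were called higher (Bst1, Cd38, Naprt, Nadk, Parp1 and Nnmt) and 3 lower (Nampt, Nmnat1 and Sirt1). For each of the 9 the DMSO and baicalin libraries did not overlap in CPM, as was so for 70.2% of all genes tested. The median absolute log2 difference was 0.56 for the 9 genes and 0.38 for all genes. The 10th gene, Nmnat3, which encodes the mitochondrial member of its enzyme family, had 2 reads in DMSO replicate 1 and none in the other libraries, where 3 reads would be 0.164 to 0.18 CPM.

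**Figure D1:**
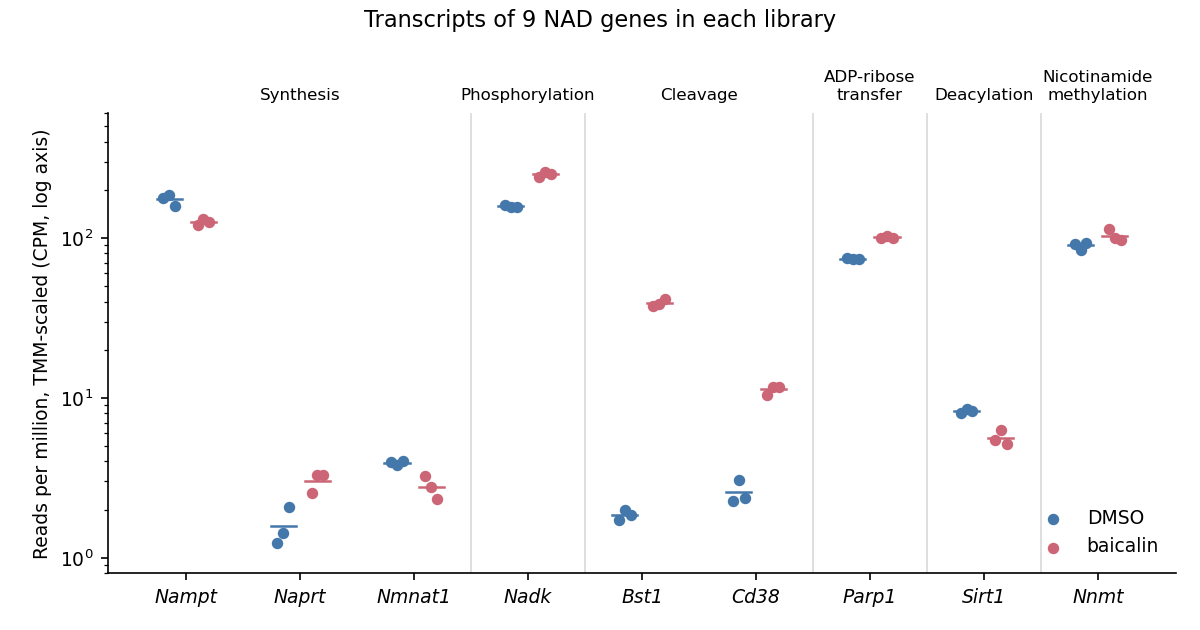
CPM (TMM-scaled, log axis) of 9 NAD genes in the 3 DMSO (blue) and 3 baicalin (red) libraries, grouped by role, with short lines at the group means; Nmnat3, with 2 reads in all, is left out. The widest gaps are those of Bst1 (1.86 against 39.0 CPM) and Cd38 (2.57 against 11.3 CPM).

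Upstream sequences were read for the members with an entry among RefSeq promoters (assembly GRCm38.p6), namely 7 of the 10 (Cd38, Nadk, Nampt, Nmnat1, Nmnat3, Parp1 and Sirt1), with 9 windows since Nadk and Nmnat1 have 2 start sites each. A set of 4 short motifs was searched on both strands from 250 bases before to 50 after the start: CACGTG, the E-box bound by clock factors and MYC; GCGTG, the core bound by the aryl hydrocarbon receptor; TGACNNNGC, the core of the NRF2 element; and TTCNNNGAA, bound by STAT factors. The 250 bases before the start are shown for Cd38 and Nadk, whose transcripts rose, and for Nampt and Sirt1, whose transcripts fell, a choice made after the values were seen. Bases that match a motif are in capitals, 5′ to 3′ on the gene's strand. The windows are chr5:43868559-43868808 (plus strand) for Cd38, chr4:155563565-155563814 (plus) for the downstream start of Nadk, chr12:32820085-32820334 (plus) for Nampt and chr10:63339036-63339285 (minus) for Sirt1.
Cd38: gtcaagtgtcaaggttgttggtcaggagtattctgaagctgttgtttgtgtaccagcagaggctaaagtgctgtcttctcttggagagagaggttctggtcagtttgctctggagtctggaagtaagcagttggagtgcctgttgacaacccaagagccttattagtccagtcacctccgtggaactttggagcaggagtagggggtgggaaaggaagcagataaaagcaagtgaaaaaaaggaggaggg
Nadk: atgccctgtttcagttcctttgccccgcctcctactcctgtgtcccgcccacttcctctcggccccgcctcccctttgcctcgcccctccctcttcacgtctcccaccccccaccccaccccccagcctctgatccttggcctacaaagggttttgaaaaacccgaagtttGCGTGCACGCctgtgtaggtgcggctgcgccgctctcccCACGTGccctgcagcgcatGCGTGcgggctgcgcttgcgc
Nampt: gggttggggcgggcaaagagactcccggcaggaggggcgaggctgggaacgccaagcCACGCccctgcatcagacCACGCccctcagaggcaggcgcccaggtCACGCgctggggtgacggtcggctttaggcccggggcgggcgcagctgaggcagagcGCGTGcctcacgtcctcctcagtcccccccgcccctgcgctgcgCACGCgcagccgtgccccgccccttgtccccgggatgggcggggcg
Sirt1: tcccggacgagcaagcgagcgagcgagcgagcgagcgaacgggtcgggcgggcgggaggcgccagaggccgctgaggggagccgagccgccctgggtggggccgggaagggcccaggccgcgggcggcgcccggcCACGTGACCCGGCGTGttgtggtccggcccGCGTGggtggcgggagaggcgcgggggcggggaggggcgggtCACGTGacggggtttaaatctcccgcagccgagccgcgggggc

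The Cd38 stretch held none of the 4 motifs. No match lay in the windows of the upstream start of Nadk and of Nmnat1 either, so the Nadk matches below are those of its downstream start. An E-box lay in 3 of the 9 windows, those of Sirt1 (at -115 and -43, counted from the start site), of Nadk (at -40) and of Parp1 (at -49), against 7.15% of the 32851 windows in the table. The GCGTG core lay in 5 of the 9, against 32.4% of all windows, with 5 matches in that of Nampt and 3 in that of Nadk. In Sirt1 the E-box at -115, the NRF2 core at -111 and a GCGTG core at -104 share bases. The NRF2 core was matched in 2 of the 9 windows (12.4% of all) and the STAT motif in none (8.30% of all). The 4 printed genes differ in base composition, with 51.7% G and C in the 300-base window of Cd38, 67.0% in the downstream one of Nadk, 76.3% in Nampt and 79.0% in Sirt1. The upstream window of Nadk had 46.7%. The shares among all windows were not matched for base composition, and Nadk and Nmnat1 each enter with 2 windows. Enrichment was not tested and cannot be judged from these shares. Counted by gene, the E-box lay in 3 of the 7 members (8.09% of all genes with a window) and the GCGTG core in 5 (35.2%). The NRF2 core lay in 2 of the 7 (13.99%) and the STAT motif in 0 (9.55%). The shares by gene were not matched for base composition either. Matches are a description of letters, and binding was not measured.

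Among the 9 tested members the largest differences were those of the 2 genes that cleave NAD at the cell surface. Bst1 (ENSMUSG00000029082, chromosome 5, 43818885 to 43843986, GRCm38, plus strand) had 32, 35 and 34 reads with DMSO against 620, 680 and 710 with baicalin. Scaled, this was 1.86 ± 0.13 CPM in DMSO, and 37.3, 38.4 and 41.3 CPM in the baicalin libraries. Every baicalin library was thus far above every DMSO library, and replicates lay close together in both groups. The rise was 20.9-fold (log2 difference 4.38, SE 0.12). Cd38 (ENSMUSG00000029084, chromosome 5, 43868553 to 43912375, plus strand), its paralog and the main NAD glycohydrolase of many tissues, had 42, 54 and 43 reads with DMSO against 174, 208 and 201 with baicalin. It rose 4.40-fold, from 2.57 ± 0.45 to 11.3 ± 0.725 CPM (log2 difference 2.14, SE 0.16). The third enzyme able to cleave NAD in this way, the axonal degeneration factor Sarm1, stood at 4.07 ± 0.37 CPM with DMSO against 3.79 ± 0.23 CPM with baicalin and missed the threshold (log2 difference -0.11, SE 0.18; edgeR, adjusted p = 0.63).

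Bst1 and Cd38 lie next to each other in the same orientation, 24566 bp apart, a pair that arose by gene duplication. Upstream of them, Fbxl5, an iron-sensing ubiquitin ligase subunit on the minus strand, overlaps the start of Bst1, and 98 bp of exon (2.95% of the Bst1 exons) are shared. Fbxl5 rose 1.92-fold, with 2333 to 2489 reads with DMSO against 4021 to 4741 with baicalin. Its FPKM (reads scaled by transcript length and by depth) was 23.4 to 26.2 times that of Bst1 in DMSO and 2.18 to 2.37 times in baicalin. The strand setting of the counting is not given, so reads from the shared 98 bp cannot be assigned with certainty. The next gene on that side, the ciliary gene Cc2d2a, fell 1.92-fold (53.5 ± 0.93 to 27.8 ± 1.27 CPM). On the far side of Cd38 the predicted gene Gm7879, 768 bp away, had 18, 22 and 26 reads with DMSO against 21, 27 and 22 with baicalin and was not called, and Fgfbp1 and Prom1 had 1 read each over the 6 libraries together. The rise was therefore not shared by every neighbour of the pair.

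**Figure D2:**
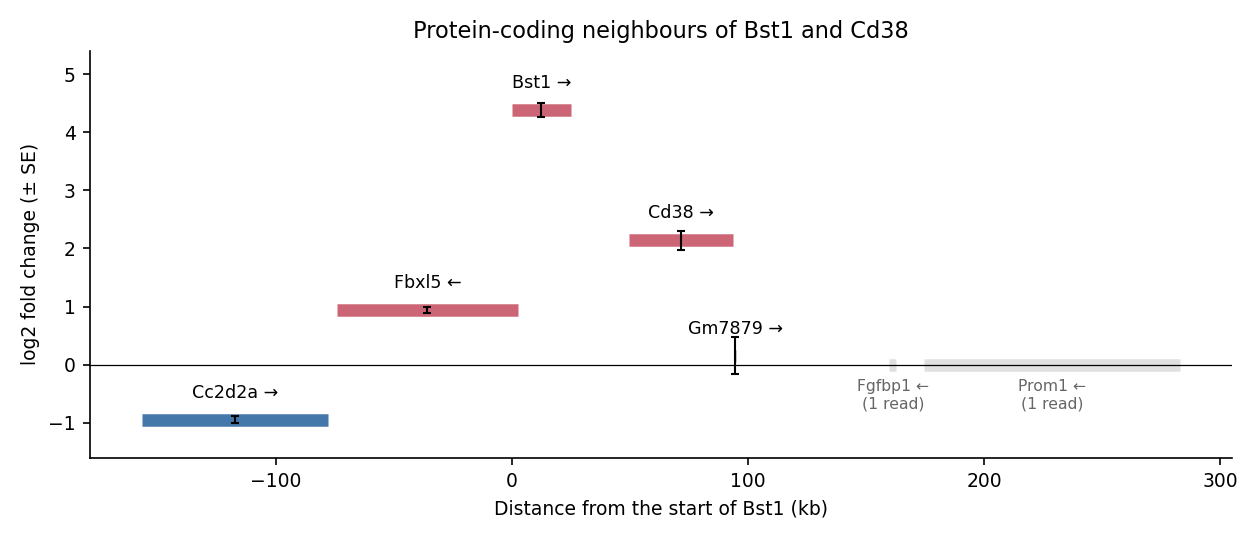
log2 fold change (baicalin over DMSO, ± SE) of the protein-coding genes around Bst1 and Cd38, drawn over their extent in kb from the start of Bst1, with arrows for the strand; red, called higher; blue, called lower; black bar alone at Gm7879, not called; grey, 1 read in all. Bst1 stands highest at 4.38, Cd38 at 2.14 and Fbxl5 at 0.94, while Cc2d2a lies at -0.94.

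Bst1 and Cd38 are also surface antigens of white blood cells. Of 8 leukocyte markers 6 were under 1 CPM in every library, and Ptprc, the pan-leukocyte antigen, had 4 reads in DMSO replicate 2, 2 in baicalin replicate 2 and 0 in the other 4. The summed level of the 8 was 2.16 to 2.41 CPM in DMSO and 3.16 to 4.89 CPM in baicalin, most of it from the lysosomal gene Cd68 and from Csf1r, whose exons share 873 bp with those of Hmgxb3. All 4 endothelial markers were under 1 CPM throughout. Cd68 was called higher (2.12-fold, edgeR, adjusted p = 0.00106), with 19, 22 and 25 reads with DMSO against 36, 32 and 65 with baicalin. The part of such cells in the rise of Bst1 and Cd38 was not tested.

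Among the genes that make NAD, the dominant one fell. Nampt (ENSMUSG00000020572, chromosome 12, 32819545 to 32853349) stood at 179, 185 and 159 CPM with DMSO against 120, 131 and 125 CPM with baicalin, 1.39-fold lower (log2 difference -0.48, SE 0.05). The lowest DMSO library was above the highest baicalin library. Naprt (ENSMUSG00000022574, chromosome 15, 75890956 to 75894481) went the other way from a low level, with 23, 25 and 38 reads with DMSO against 42, 58 and 57 with baicalin (log2 difference 0.94, SE 0.25). Its highest DMSO library, replicate 3, came close to its lowest baicalin library, replicate 1, at 2.08 against 2.53 CPM. Exons of Naprt share 277 bp with those of Eef1d on the same strand, a translation elongation factor gene with 70.4 times as many reads that itself rose 1.45-fold, so the value of Naprt is uncertain. Nadsyn1, which completes the nicotinic acid route, and Nmrk1, the nicotinamide riboside kinase, were not called (log2 differences -0.07, SE 0.13, and 0.04, SE 0.12). Of the summed FPKM of the entry enzymes Nampt, Naprt, Nmrk1, Nmrk2 and Qprt, Nampt held 90.6% ± 1.19 in DMSO and 85.3% ± 0.33 in baicalin. Their sum was 38.4 ± 2.55 FPKM in DMSO and 29.6 ± 1.05 FPKM in baicalin, so transcripts for the initial step remained mostly those of Nampt in both groups.

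The Nmnat enzymes that form NAD from its mononucleotide were called in opposite directions. Nmnat1 (ENSMUSG00000028992, chromosome 4, 149467572 to 149485202), the nuclear enzyme, had 73, 67 and 74 reads with DMSO against 54, 49 and 40 with baicalin. All baicalin libraries lay below the DMSO libraries (log2 difference -0.51, SE 0.21). The call was lost with DESeq2, without a count filter and on the unfiltered FPKM scale (log2 differences -0.49, -0.47 and -0.26). It was also lost on leaving out replicate 1 or 3 of DMSO or replicate 2 or 3 of baicalin (log2 differences from -0.50 to -0.38). Nmnat2, the cytosolic enzyme, was the most abundant of the family and rose slightly, from 60.0 ± 2.26 to 70.3 ± 4.65 CPM (log2 difference 0.23, SE 0.05, edgeR, adjusted p = 0.000163). That call was lost with scaling by library size alone (log2 difference 0.10). It made up 88.8% ± 0.08 of the family's summed FPKM in DMSO and 93.0% ± 0.82 in baicalin. Pnp, the purine nucleoside phosphorylase that also splits nicotinamide riboside, fell 1.95-fold, from 93.0 ± 8.50 to 47.8 ± 3.07 CPM (adjusted p = 3.86e-16, edgeR).

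Nadk (ENSMUSG00000029063, chromosome 4, 155562378 to 155591001), the cytosolic NAD kinase, stood at 161, 157 and 156 CPM with DMSO against 241, 258 and 249 CPM with baicalin. The groups were far apart relative to the replicate spread, with a 1.57-fold rise (log2 difference 0.66, SE 0.04). The mitochondrial kinase gene Nadk2 moved oppositely, from 50.3 ± 3.52 to 32.3 ± 2.22 CPM (1.56-fold lower, edgeR, adjusted p = 2e-12). The FPKM of Nadk was 4.13 to 4.61 times that of Nadk2 in the DMSO libraries and 10.2 to 10.8 times in the baicalin libraries. The sum of both kinases was 52.5 ± 1.40 FPKM in DMSO and 74.2 ± 2.44 FPKM in baicalin.

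**Figure D3:**
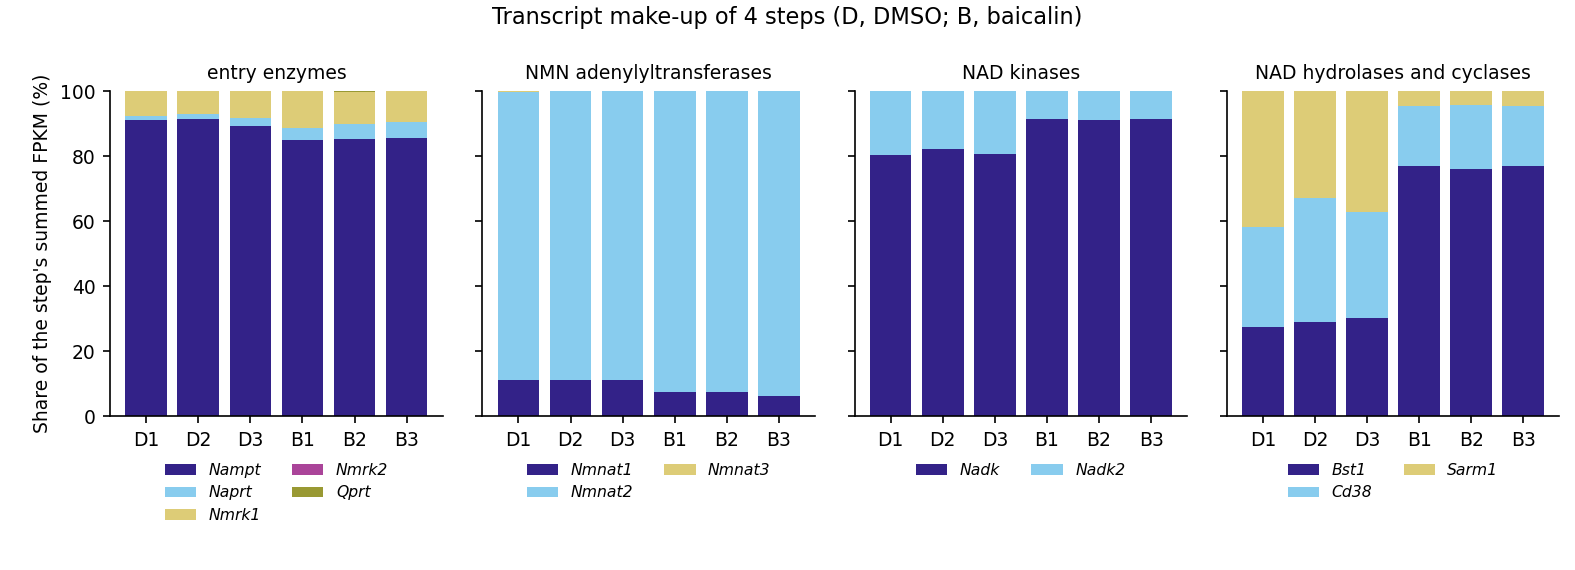
Share (%) of the summed FPKM of 4 steps held by each gene, in the 3 DMSO (D1 to D3) and 3 baicalin (B1 to B3) libraries. Bst1 holds 28.9% of the hydrolase and cyclase sum in DMSO and 76.7% in baicalin on average, and Nadk 81.1% and 91.4% of the kinase sum.

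The intracellular NAD consumers Parp1 and Sirt1, and Nnmt, had smaller differences than Bst1 and Cd38. Parp1 (ENSMUSG00000026496, chromosome 1, 180568924 to 180601254) had 1378, 1288 and 1340 reads with DMSO against 1665, 1814 and 1718 with baicalin. Its level was 73.8 ± 0.65 and 101 ± 1.35 CPM, so the groups were far apart relative to the replicate spread, and the rise was 1.37-fold (log2 difference 0.45, SE 0.05). Sirt1 (ENSMUSG00000020063, chromosome 10, 63319005 to 63381704) fell 1.47-fold, with 148, 150 and 152 reads with DMSO against 90, 111 and 89 with baicalin (log2 difference -0.56, SE 0.14). Nnmt (ENSMUSG00000032271, chromosome 9, 48591877 to 48605153) showed the smallest difference of the 9, at 91.9, 84.2 and 93.6 CPM with DMSO against 113, 100.5 and 96.4 CPM with baicalin (log2 difference 0.20, SE 0.05). Its highest DMSO library, replicate 3, was just below its lowest baicalin library, also replicate 3. With scaling by library size alone Nnmt stood at 0.07 and was not called, and the call was also lost on the unfiltered FPKM scale. The ratio of Nampt to Nnmt FPKM was 0.53 to 0.69 in DMSO and 0.33 to 0.41 in baicalin.

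Per transcript length, the DMSO order was Nnmt (57.6 ± 3.22 FPKM), Nadk (42.6 ± 0.82), Nampt (34.8 ± 2.75), Parp1 (14.1 ± 0.15), Sirt1 (1.57 ± 0.05), Nmnat1 (1.31 ± 0.04), Naprt (0.68 ± 0.19), Cd38 (0.67 ± 0.12), Bst1 (0.57 ± 0.04) and Nmnat3. Naprt, Cd38 and Bst1 overlapped between neighbours in that order, and the other neighbours did not. In baicalin Nadk (67.8 ± 2.04 FPKM) and Nnmt (66.8 ± 5.92) led and overlapped, followed by Nampt (25.3 ± 0.95), Parp1 (19.4 ± 0.20), Bst1 (11.5, 11.7 and 12.7 in the 3 libraries) and Cd38 (2.96 ± 0.18). Naprt (1.32 ± 0.19), Sirt1 (1.07 ± 0.11) and Nmnat1 (0.93 ± 0.16) came next and overlapped from one to the next. Bst1 thus stood at rank 9 in DMSO and at rank 5 in baicalin, and its FPKM was 0.76 to 0.93 times that of Cd38 in DMSO and 3.83 to 4.18 times in baicalin.

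**Figure D4:**
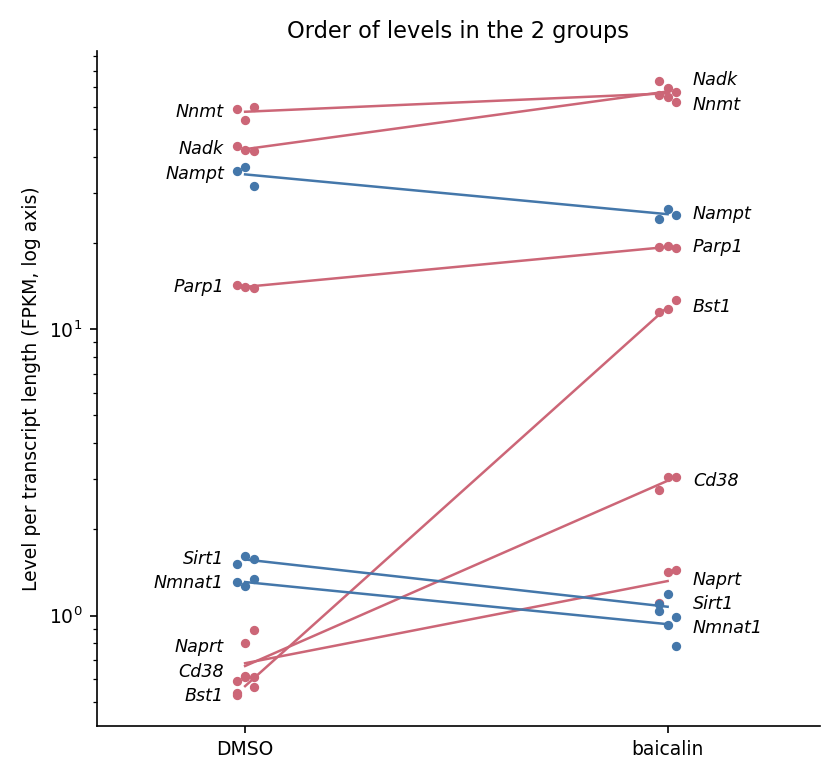
FPKM (log axis) of 9 NAD genes in the 3 DMSO and 3 baicalin libraries (points), with lines joining the group means; red, called higher; blue, called lower; Nmnat3 is left out. Bst1 crosses from below Nmnat1 and Sirt1 in DMSO (0.57 FPKM) to above Cd38 in baicalin (11.5 to 12.7 FPKM).

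The wider pathway was read through 11 lists holding 76 genes, of which 75 are in the table and 59 were tested. Of the 59, 19 were higher, 24 lower and 16 not called, which is 72.9% called against 67.7% of all genes, with a median log2 difference of -0.07 against 0.00. Leaving out the 10 genes described above, 13 of 50 were higher and 21 lower, a called share of 68.0%. Scaling by library size alone gave 13 higher and 27 lower over all lists. Leaving out listed genes whose exons overlap another gene with over 50% as many reads gave 14 higher and 23 lower, an alternative chosen after seeing the data. Of the 16 genes too low to test, none had more than 5 reads in any library. They included 5 surface ADP-ribosyltransferases and 6 of 9 genes that make NAD from tryptophan, Qprt among them.

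**Figure D5:**
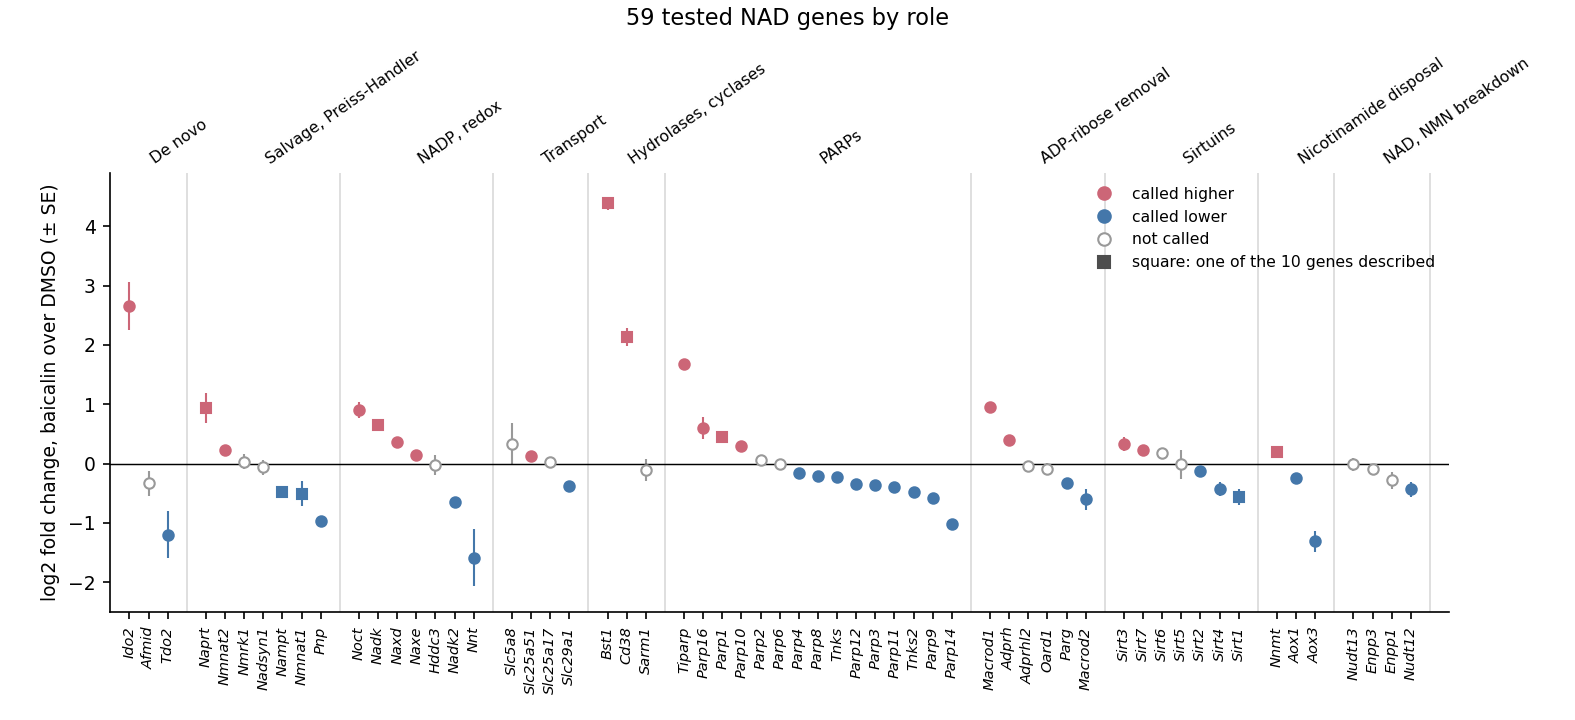
log2 fold change (baicalin over DMSO, ± SE) of 59 tested NAD genes by role, with squares for the genes described individually; red, called higher; blue, called lower; open grey, not called. Values run from -1.59 for Nnt to 4.38 for Bst1, and 9 of 15 PARP genes lie below 0 and are called. Of all genes tested, 34.1% were called lower. The count filter was passed by Nnt through its DMSO libraries alone, and its exons overlap a further entry of the same gene.

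The PARP family, which attaches ADP-ribose to proteins as chains or single units, was split as 4 higher and 9 lower of 15, with a median of -0.21. That is 86.7% called, against 67.7% of all genes tested. Tiparp, a mono-ADP-ribosyltransferase and known target of the aryl hydrocarbon receptor, rose 3.20-fold, from 36.2 ± 2.06 to 116 ± 2.55 CPM (adjusted p = 1.96e-33, edgeR). Parp16, an enzyme of the endoplasmic reticulum membrane, rose 1.51-fold from 3.23 CPM. The interferon-inducible Parp14 fell from 110 ± 6.98 to 54.3 ± 3.84 CPM (2.04-fold, edgeR, adjusted p = 8.67e-22). Parp9, also interferon-inducible, fell by 0.58 on the log2 scale, but its exons share 458 bp with the opposite-strand gene Dtx3l, which fell by 0.51. Of the 5 genes Parp9, Parp10, Parp11, Parp12 and Parp14, a group chosen after seeing the values, 4 were called lower. Parp10 was called higher, from 49.1 ± 3.02 to 60.2 ± 0.54 CPM, and its exons share 205 bp with those of Plec, which has more reads. The summed FPKM of the 15 was 154 ± 2.17 in DMSO and 153 ± 2.03 in baicalin, within which the share of Parp1 was 9.13% ± 0.20 and 12.7% ± 0.13 and that of Tiparp 5.45% ± 0.37 and 17.7% ± 0.23. The family's transcript sum therefore differed by less than its replicate spread while its make-up shifted.

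Genes that remove ADP-ribose were split as 2 higher and 2 lower of 6, which is 66.7% called against 67.7% of all genes tested. Macrod1, a hydrolase of single ADP-ribose units, rose 1.94-fold (44.2 ± 1.91 to 85.9 ± 3.04 CPM), and Adprh, which frees arginine from ADP-ribose, 1.32-fold. Parg, which takes ADP-ribose chains apart, fell 1.25-fold and Macrod2 1.52-fold, a call lost on the unfiltered FPKM scale.

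Among the 7 sirtuins 2 were higher, 3 lower and 2 not called, which is 71.4% called against 67.7% of all genes tested. All 7 lay within a log2 difference of -0.56 to 0.34. Sirt1 had the largest absolute value of these. Sirt4, a mitochondrial member, fell 1.35-fold (11.2 ± 0.97 to 8.32 ± 0.44 CPM). Sirt2, the cytosolic and most abundant member, had a log2 difference of -0.13, a call lost with DESeq2, without a count filter, on the unfiltered FPKM scale and without baicalin replicate 2 (-0.08). Sirt3 (0.34) and Sirt7 (0.23) were called higher although their groups overlapped. The call of Sirt3 was lost with library-size scaling, with DESeq2, in each FPKM setting and without baicalin replicate 3 (0.21), and that of Sirt7 with library-size scaling, on the unfiltered FPKM scale and without DMSO replicate 1 (0.18). Exons of Sirt3 overlap those of Psmd13 and Ric8a, and those of Sirt7 overlap Mafg, all with more reads. Sirt1 made up 3.17% ± 0.11 of the sirtuins' summed FPKM in DMSO and 2.23% ± 0.26 in baicalin.

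In the list of NADP and redox conversion 4 of 7 genes were higher and 2 lower, which is 85.7% called against 67.7% of all genes tested. Noct, the clock-controlled NADP phosphatase nocturnin, rose 1.88-fold, from 6.10 ± 0.47 to 11.5 ± 2.16 CPM (adjusted p = 5.02e-08, edgeR), with 172, 179 and 240 reads in the baicalin libraries. The repair enzyme genes Naxd and Naxe, which restore hydrated NADH, had log2 differences of 0.36 and 0.14, and the call of Naxe was lost with library-size scaling (0.02). The other gene that fell beside Nadk2 was the mitochondrial transhydrogenase Nnt, at 16, 17 and 12 reads with DMSO against 5, 4 and 5 with baicalin, named after its values were seen. Nnt passed the count filter through its DMSO libraries alone. Its exons share 3339 bp (47.4%) with those of a further entry of the same gene on the same strand, which had 0 reads. The value of Nnt is therefore uncertain. Among transporters, Slc29a1, a nucleoside carrier, fell 1.30-fold (141 ± 2.05 to 108 ± 2.03 CPM), and Slc25a51, the mitochondrial NAD carrier, had a log2 difference of 0.13 that vanished with library-size scaling (0.00).

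Of the aldehyde oxidases, which oxidise the methylated nicotinamide that Nnmt makes, Aox3 fell 2.48-fold, with 135, 114 and 117 reads with DMSO against 40, 42 and 58 with baicalin (adjusted p = 7.08e-09, edgeR). Aox1 had a log2 difference of -0.24 with overlapping groups, a call lost in each FPKM setting and without baicalin replicate 1 (-0.14). Among enzymes that break down NAD and its mononucleotide, 1 of 4 tested was lower, Nudt12 (log2 difference -0.44, SE 0.13, edgeR, adjusted p = 0.00201). That is 25% called, against 67.7% of all genes tested. Of 3 tested genes of the tryptophan route, the dioxygenase gene Ido2 rose from 7, 5 and 3 reads in DMSO to 30, 34 and 28 in baicalin (log2 difference 2.66, SE 0.41), having passed the count filter through its baicalin libraries. Tdo2, the other tryptophan dioxygenase gene tested, was named after its values were seen. It had 30, 25 and 13 reads with DMSO against 10, 11 and 7 with baicalin. Tdo2 was called lower (log2 difference -1.20, SE 0.40, edgeR, adjusted p = 0.00679), having passed the count filter through its DMSO libraries. Afmid was not called.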

How the data were processed

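Poly-A RNA was selected from 3 µg of RNA per sample and sequenced, per the labels' protocols. To obtain the deposited counts, the authors ran featureCounts 1.5.0-p3, per the design text of the series. Their build was mm10, per the submitters' processing notes. The authors derived FPKM from gene length and counts, per the series design text. Not given in the sources used here are the aligner, annotation and strand setting. All per-sample columns matched a sample.

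All genes were fitted by edgeR 4.0.16 under R 4.3.3, using filterByExpr, TMM scaling and a robust quasi-likelihood model of treatment, which was tested on simulated data. Far fewer genes were changed in the simulation than were called here, so it does not test the scaling under such broad change. The biological coefficient of variation was 4.61%. Per-length levels use the deposited FPKM. Positions and exon overlaps come from GENCODE M21 (same assembly as mm10), which holds 54495 of the 54532 identifiers. Where a symbol has several rows, the row with most reads was used. Protein sequences were not used here. The members and lists were chosen with earlier results of these data known. Named genes are the members, up to 4 called non-members of each list by size of change whose mean reached 1 CPM, and neighbours of Bst1 and Cd38. Genes not called, and overlapping genes, were named beside them after their values were seen. Alternatives were DESeq2 1.42.0, limma-voom and limma-trend on log2(FPKM + 1) or log2(FPKM + 0.1) (limma 3.58.1), RLE or no scaling factors, other filters, the replicate number as a block and leaving out each library. Counting limits take 3 reads as the floor and cover counting error only. Tables and figures used Python 3.11.15 with pandas 2.3.3 and matplotlib 3.10.9.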

Additional observations from a re-analysis of the deposited data

How the results depend on the processing

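All counts of calls stayed within 1.5 times their value under the alternatives run, and none of the 33 genes followed through the alternatives reversed. Those genes are the tested members and the called genes of each list with the largest changes in these same libraries. A reversal among them was therefore unlikely from the start. Of these 33, 23 kept their call in each alternative that gave a value, and the others lost it in 30 of 520 gene and setting pairs. Leaving out each library in turn gave 4424 to 4583 genes called higher and 4397 to 4563 lower, 18 to 20 and 21 to 23 among the NAD lists, and 6 and 2 to 3 among the 9 members tested. The order of the 10 members in DMSO was the same by counts per kb of exon. Both measures rest on the same counts and on gene length, so this is no independent check. Pairing by replicate number was not seen in the values, which cannot show that the samples were unpaired. Deviations of same-numbered libraries from their group means had correlations of 0.03, 0.04 and -0.00, and not every library correlated best with its own number. With the replicate block 4660 genes were called higher and 4731 lower, 19 and 24 among the NAD lists and 6 and 3 among the members. Values on the log2(FPKM + 1) scale understate changes of low genes (Bst1 3.05, Cd38 1.25, Naprt 0.47). Levels near 1 CPM, such as those of Bst1, Cd38 and Naprt in DMSO, rest on 23 to 54 reads per library.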
